A study of Mus musculus with 12 samples.

Results

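LIM homeobox genes encode transcription factors that join a DNA-binding homeodomain to a pair of LIM zinc fingers, through which they bind cofactors such as Ldb1 and form complexes whose makeup selects their target genes. In the embryo they specify neuron types and organs region by region, and a gene of this family that is needed in one region is usually silent in its neighbours. Polycomb repressive complex 2 (PRC2), of which Eed is a core subunit, methylates histone H3 on lysine 27, and this mark (H3K27me3) covers developmental regulators in cells that do not use them, while acetylation of the same lysine (H3K27ac) and RNA polymerase II (RNA-Pol2) mark promoters in use. The 10 genes described here were chosen by name: Lhx6, Lhx8 and Isl1 of ventral forebrain neurons, Lhx1, Lhx5 and Lhx9 of the diencephalon and of several other organs, Lmx1a and Lmx1b of the dorsal midline and of midbrain dopamine neurons, and Lhx3 and Lhx4 of the pituitary and motor neurons. Each had 1 promoter window, a stretch of 2 kb centred on an annotated start, among the 55385 windows and 55276 gene symbols of the deposited tables.

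The libraries came from untreated C57BL/6 mouse forebrain at E12.5, in midgestation. The groups were EedcKO, a genotype named for Eed, and wild type. X-ChIP, immunoprecipitation of cross-linked chromatin, gave the Eed and input libraries, and CUT&Tag gave H3K27me3, H3K27ac, RNA-Pol2 and IgG. In CUT&Tag, a transposase tethered to the antibody cuts the DNA beside it. Each genotype had 1 library of each kind, 12 in all. Differences therefore lack any replicate check, and p-values are not reported. The Cre driver, the deleted part of Eed, the cells that keep Eed and the number of pooled embryos are not stated in the labels. In whole tissue, fewer marked cells and less mark per cell cannot be told apart.

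Total promoter counts ran from 948955 to 3842779 reads a library. The window of Eed itself held 40 Eed reads in EedcKO and 121 in wild type, and 246 RNA-Pol2 reads in EedcKO and 89 in wild type; a promoter window does not measure the deleted part of a gene and checks no label. Of 11 forebrain markers, 9 had at least 2-fold more H3K27ac than IgG in wild type, against 23.3% of all promoters. So did 0 of 5 hindbrain and spinal cord markers, 0 of 5 endothelial, 0 of 5 erythroid, 1 of 5 microglia and macrophage and 1 of 5 mesenchyme markers. Wild type H3K27me3 was at least 2-fold above IgG at 10 of the 11 forebrain markers as well, against 19.1% of all promoters. It was so at 5 of 5 hindbrain and spinal cord, 4 of 5 mesenchyme and 1 of 5 markers of each other kind. The library labelled EedcKO H3K27ac went against its label, and the one labelled EedcKO H3K27me3 lay near IgG. Over all genes, the Pearson correlation of log2 levels between the library labelled EedcKO H3K27ac and wild type was 0.936 for H3K27me3 but 0.68 for H3K27ac. For the library labelled EedcKO H3K27me3 it was 0.736 for wild type H3K27me3, 0.867 for wild type H3K27ac and 0.871 for EedcKO IgG. Of the 11 forebrain markers, 1 was at least 2-fold higher in that library than in that IgG, against 7.78% of all promoters. Loss of the mark and an exchange of labels cannot be told apart for that library by these values. Both libraries are therefore named by their labels throughout, each is set against both wild type histone libraries, and no direction of an EedcKO histone mark rests on them. The wild type Eed library was uneven, with a median of 11 reads a window against 19 in its input, and it lay below its input, in RPKM, in 71.4% of all genes.

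Promoter sequences are shown for 4 of these genes because they span the range of CG dinucleotides, capitalised here, among the genes, with many and with few wild type Eed reads. CG-rich DNA is known to recruit PRC2 in mouse cells. The sequences are from RefSeq, build GRCm38.p6, which is the build mm10 of the files, and run 5′ to 3′ on the gene's strand, from 250 bases before to 50 bases after a start. RefSeq sequences matched 9 of the 10 genes, all but Lhx5, with 12 starts in all, of which 8 starts of 7 genes lay inside the counted windows. Isl1 (chr13:116309639-116309938, minus strand) stands for a CG-rich promoter with many Eed reads and Lmx1a (chr1:167689308-167689607, plus strand) for one with fewer CG but more Eed. Lhx3 has a start inside its window (chr2:26208200-26208499, minus strand) and another start 1714 bp downstream of the window's centre (chr2:26206526-26206825, minus strand). Lhx8 (chr3:154330511-154330810, minus strand) had the fewest CG and the fewest wild type Eed reads.
Isl1: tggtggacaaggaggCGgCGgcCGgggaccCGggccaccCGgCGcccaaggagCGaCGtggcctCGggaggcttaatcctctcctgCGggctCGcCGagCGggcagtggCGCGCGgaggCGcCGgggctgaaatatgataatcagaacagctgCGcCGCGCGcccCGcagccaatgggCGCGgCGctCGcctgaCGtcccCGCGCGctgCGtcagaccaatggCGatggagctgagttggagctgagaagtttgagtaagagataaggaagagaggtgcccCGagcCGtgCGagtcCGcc
Lmx1a: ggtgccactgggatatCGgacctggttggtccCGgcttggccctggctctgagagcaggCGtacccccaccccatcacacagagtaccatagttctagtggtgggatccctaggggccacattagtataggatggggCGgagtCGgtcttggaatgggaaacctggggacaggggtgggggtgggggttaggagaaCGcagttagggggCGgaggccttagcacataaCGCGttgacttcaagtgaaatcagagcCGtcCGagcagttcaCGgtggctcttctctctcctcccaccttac
Lhx3, start inside the window: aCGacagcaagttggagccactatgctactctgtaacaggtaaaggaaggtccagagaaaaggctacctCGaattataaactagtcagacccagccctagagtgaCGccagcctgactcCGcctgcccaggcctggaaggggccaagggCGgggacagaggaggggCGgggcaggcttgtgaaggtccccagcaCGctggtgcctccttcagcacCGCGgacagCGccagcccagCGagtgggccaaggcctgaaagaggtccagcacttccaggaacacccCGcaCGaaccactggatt
Lhx3, downstream start: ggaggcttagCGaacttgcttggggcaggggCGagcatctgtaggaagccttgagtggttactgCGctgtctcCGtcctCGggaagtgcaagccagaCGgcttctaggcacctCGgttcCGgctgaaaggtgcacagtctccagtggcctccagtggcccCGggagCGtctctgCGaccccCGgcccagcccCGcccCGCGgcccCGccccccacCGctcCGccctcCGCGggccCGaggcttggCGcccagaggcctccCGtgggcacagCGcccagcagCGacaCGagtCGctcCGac
Lhx8: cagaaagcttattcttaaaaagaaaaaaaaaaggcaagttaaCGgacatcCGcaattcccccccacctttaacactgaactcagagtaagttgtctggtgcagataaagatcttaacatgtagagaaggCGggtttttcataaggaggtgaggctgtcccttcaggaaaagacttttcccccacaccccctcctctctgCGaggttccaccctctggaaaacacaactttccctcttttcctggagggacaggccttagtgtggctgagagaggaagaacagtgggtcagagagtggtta

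Isl1 held 37 CG in these 300 bases, which only 5.58% of all 32851 RefSeq promoters reach or exceed. The others were Lhx1 with 31, Lmx1b with 24, Lhx4 with 19, Lhx6 with 16, 17 and 11 at its 3 starts, Lhx3 with 13 at the start inside its window and 28 at the downstream start, Lmx1a with 12, Lhx9 with 6 and Lhx8 with 4. The median of all promoters was 7, with quartiles of 3 and 20. Lhx8 and Lhx9 thus lay under that median, and the start of Lhx9 (6133 bp from the centre), the start of Lhx4 (9657 bp) and the downstream start of Lhx3 lay outside the counted windows.

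All 10 windows carried H3K27me3 in the wild type forebrain at levels among the highest of all genes, and none passed the size rule used here for H3K27ac over IgG, although this count moved with the scaling. The windows of Lhx5, Lmx1b and Lmx1a held the most H3K27me3, and those of Lhx3 and Lhx4, the pituitary genes, held least. The RefSeq start of Lhx4 lay outside its window, 9657 bp from the centre. Wild type Eed was high over 7 of the windows and low over those of Lhx8, Lhx3 and Lhx4. In EedcKO the Eed reads lay between 34 and 73 at every gene, RNA-Pol2 passed the rule over IgG at 1 gene, and 318 to 2516 reads lay in each window in the library labelled EedcKO H3K27ac.

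Reads per window are given gene by gene, and since all these windows span 2 kb they compare levels between genes at equal length. Lhx6 (window chr2:36104408-36106407), which directs interneurons of the medial ganglionic eminence, held 43 Eed, 23 input, 46 H3K27me3, 1777 H3K27ac, 104 RNA-Pol2 and 46 IgG reads in the libraries labelled EedcKO, against 145 Eed, 22 input, 1231 H3K27me3, 36 H3K27ac, 83 RNA-Pol2 and 30 IgG reads in wild type. The window of Lhx8 (chr3:154329659-154331658), a gene of basal forebrain cholinergic neurons, held 51 Eed, 29 input, 24 H3K27me3, 1507 H3K27ac, 69 RNA-Pol2 and 17 IgG reads in the libraries labelled EedcKO, against 4 Eed, 22 input, 963 H3K27me3, 36 H3K27ac, 64 RNA-Pol2 and 25 IgG reads in wild type. For Isl1 (chr13:116308689-116310688), which acts in striatal, cholinergic and motor neurons, the libraries labelled EedcKO held 34 Eed, 24 input, 40 H3K27me3, 968 H3K27ac, 67 RNA-Pol2 and 22 IgG reads, against 121 Eed, 25 input, 714 H3K27me3, 37 H3K27ac, 41 RNA-Pol2 and 21 IgG reads in wild type. These 3 ventral forebrain genes had high wild type H3K27me3 although neurons that use them arise in this tissue, and Lhx8 alone among them had fewer wild type Eed than input reads.

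Lhx1 (chr11:84524535-84526534), known for head formation and kidney development, held 67 Eed, 23 input, 20 H3K27me3, 1756 H3K27ac, 62 RNA-Pol2 and 29 IgG reads in the libraries labelled EedcKO, against 157 Eed, 29 input, 1318 H3K27me3, 18 H3K27ac, 21 RNA-Pol2 and 14 IgG reads in wild type. At Lhx5 (chr5:120430699-120432698), needed for the hippocampus, the libraries labelled EedcKO held 73 Eed, 16 input, 37 H3K27me3, 2516 H3K27ac, 79 RNA-Pol2 and 41 IgG reads, against 77 Eed, 36 input, 1660 H3K27me3, 48 H3K27ac, 54 RNA-Pol2 and 37 IgG reads in wild type. Lhx9 (chr1:138847577-138849576), a gene of the thalamus and the gonad, held 49 Eed, 16 input, 33 H3K27me3, 1262 H3K27ac, 93 RNA-Pol2 and 30 IgG reads in the libraries labelled EedcKO, against 66 Eed, 20 input, 872 H3K27me3, 34 H3K27ac, 68 RNA-Pol2 and 19 IgG reads in wild type. Of all 10 windows, that of Lhx1 had the fewest H3K27ac, RNA-Pol2 and IgG reads in wild type, and that of Lhx5 the most wild type H3K27me3.

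Lmx1a (chr1:167688237-167690236), active in the cortical hem and roof plate, held 67 Eed, 32 input, 30 H3K27me3, 2393 H3K27ac, 76 RNA-Pol2 and 53 IgG reads in the libraries labelled EedcKO, against 198 Eed, 18 input, 1535 H3K27me3, 45 H3K27ac, 68 RNA-Pol2 and 40 IgG reads in wild type. Its relative Lmx1b (chr2:33639511-33641510), which patterns the dorsal limb and is needed by serotonin neurons, held 62 Eed, 19 input, 34 H3K27me3, 2096 H3K27ac, 64 RNA-Pol2 and 33 IgG reads in the libraries labelled EedcKO, against 198 Eed, 20 input, 1618 H3K27me3, 26 H3K27ac, 54 RNA-Pol2 and 22 IgG reads in wild type. Both Lmx1 genes shared the highest wild type Eed count of the 10. Lhx3 (chr2:26207289-26209288), needed for the pituitary and motor neurons, held 39 Eed, 11 input, 31 H3K27me3, 639 H3K27ac, 101 RNA-Pol2 and 52 IgG reads in the libraries labelled EedcKO, against 11 Eed, 30 input, 541 H3K27me3, 44 H3K27ac, 57 RNA-Pol2 and 39 IgG reads in wild type. Lhx4 (chr1:155750684-155752683), which acts beside Lhx3 in the pituitary, held 51 Eed, 29 input, 44 H3K27me3, 318 H3K27ac, 75 RNA-Pol2 and 55 IgG reads in the libraries labelled EedcKO, against 12 Eed, 20 input, 255 H3K27me3, 45 H3K27ac, 75 RNA-Pol2 and 59 IgG reads in wild type. The windows of this pituitary pair had the lowest wild type H3K27me3 of the 10. Their wild type Eed was low among the 10 and near the median of 11 reads over all genes. The RefSeq start of Lhx4 lay 9657 bp from its window's centre. The window of Gm27196, which overlaps that of Lhx3, held 1141 H3K27me3 and 111 Eed reads in wild type. Lhx4 had the highest IgG of the 10 windows in both genotypes.

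**Figure D1:**
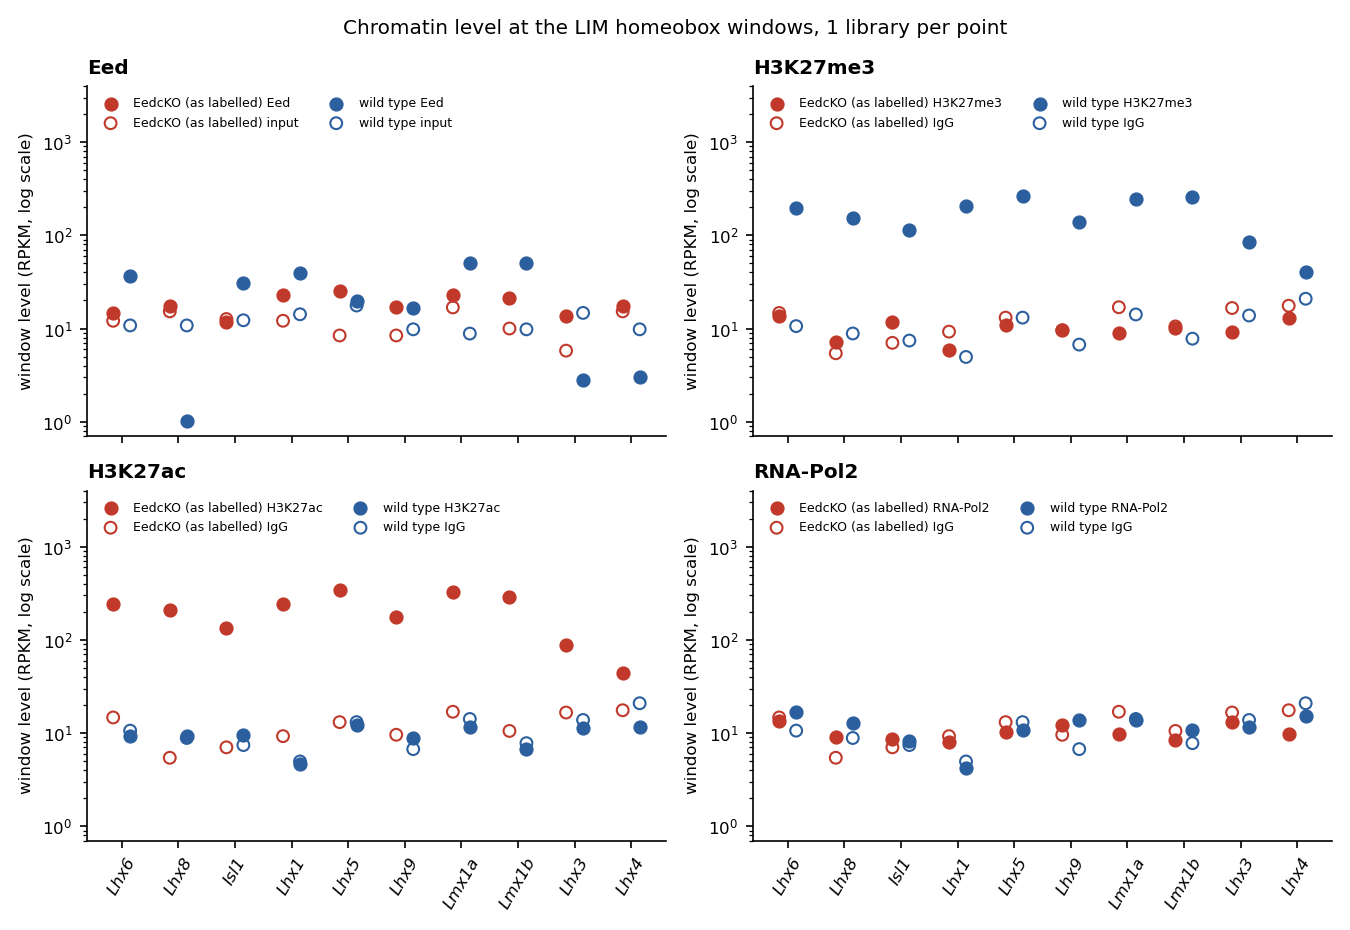
Level of each target (filled points) and of its control library (open points) at the 10 windows, in RPKM on a log scale, with the libraries labelled EedcKO left of wild type at each gene and 1 library per point. Wild type H3K27me3 runs from 40.3 to 262.5 RPKM, as the library labelled EedcKO H3K27ac does from 43.8 to 346.7 RPKM, while H3K27ac in wild type and RNA-Pol2 in both genotypes lie among their IgG points.

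At 5 genes the window overlaps that of an opposite-strand transcript, so that reads are shared: Lhx1 with Lhx1os over 1875 bp, Lhx5 with Gm27199 over 1932 bp, Lhx8 with AI606473 over 1838 bp, Lmx1b with C130021I20Rik over 1318 bp and Lhx3 with Gm27196 over 413 bp. Within the shared stretch, reads of a gene and of its partner cannot be told apart.

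Ratios between libraries are given as relative log2 ratios: the log2 ratio of RPKM with a pseudocount of 0.5 RPKM, minus its median over all tested promoters, those with a mean of at least 1 RPKM in both libraries. A ratio of at least 2-fold is the size rule. The interval given after a ratio is the exact 95% Clopper-Pearson interval for the 2 counts, moved by the same median. It covers counting error only. All 10 genes were tested in every comparison.

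H3K27me3 in wild type exceeded IgG at least 2-fold at 10 of 10 genes, against 19.1% of all tested promoters. The median relative log2 ratio was 5.13, and the range ran from 1.97 at Lhx4 (1.57 to 2.42) to 6.29 at Lhx1 (5.68 to 7.30). In the order of reads in wild type, Lhx5, Lmx1b and Lmx1a did not differ from their neighbours beyond counting error, nor did Lhx1 and Lhx6. The steps from Lmx1a to Lhx1, from Lhx6 to Lhx8 and on through Lhx9, Isl1, Lhx3 and Lhx4 were each larger than counting error. Even at Lhx4, 96.2% of all genes had less H3K27me3, and at Lhx5 99.9% had less. Scaled by library totals alone, with no shift by the median promoter, 9 of 10 genes passed, all but Lhx4, and of all promoters 7.62% were higher and 51.5% lower, instead of 19.1% and 9.82%. Shifted by the median of promoters without a summit in any library, all 10 passed, with 26.7% of all promoters higher and 4.21% lower.

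H3K27ac in wild type passed the rule at 0 of 10 genes, against 23.3% of all promoters that were higher than IgG and 19.5% that were lower. The median relative log2 ratio was 0.26, from -0.43 at Lhx4 to 0.75 at Lhx9. With 18 to 48 reads a window, all 10 counting intervals held 0 at this scaling. The result depended on the scaling: shifted by promoters without a summit, all 10 lay above 0 and 2 passed, with 34.2% of all promoters higher and 10.9% lower, while by library totals 7 of 10 lay below 0 and none passed, with 15.9% higher and 29.9% lower.

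RNA-Pol2 in EedcKO passed the rule at 1 of 10 genes, against 23.4% of all promoters: Lhx8 had 69 RNA-Pol2 and 17 IgG reads, a relative log2 ratio of 1.31 (0.57 to 2.22). Lhx9 followed with 0.95 (0.36 to 1.61) and Isl1 with 0.92 (0.23 to 1.71). The remaining genes lay between -0.19 at Lhx4 and 0.52 at Lhx6, with intervals that held 0. The median of the 10 was 0.38. Without the shift no gene passed, and 11.8% of all promoters were higher and 35.0% lower instead of 23.4% and 11.1%. Shifted by promoters without a summit, 3 passed, with 31.6% higher and 3.94% lower. RNA-Pol2 in wild type passed at 1 of 10 genes, against 15.3% of all promoters: Lhx9 had 68 RNA-Pol2 and 19 IgG reads, a relative log2 ratio of 1.19 (0.49 to 2.06). Lhx6 followed with 0.85 (0.25 to 1.52) and Lhx8 with 0.73 (0.07 to 1.49), and the other 7 genes lay between -0.24 and 0.67 with intervals that held 0. By library totals none passed, with 11.3% of all promoters higher and 13.0% lower, and shifted by promoters without a summit 3 passed, with 22.2% higher and 3.18% lower.

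Set directly against wild type, RNA-Pol2 in EedcKO was at least 2-fold higher at Lhx1 only, 1 of 10 genes against 12.2% of all promoters. Lhx1 had 62 reads in EedcKO and 21 in wild type, a relative log2 ratio of 1.27 (0.61 to 2.13). Its IgG moved the same way, with 29 reads in EedcKO and 14 in wild type, a relative log2 ratio of 0.88 (-0.03 to 1.97). With IgG subtracted from both libraries the ratio was -0.38. In RPKM, however, RNA-Pol2 at Lhx1 lay below IgG in EedcKO (8.07 and 9.27) and in wild type (4.23 and 4.96). Subtraction thus left no RNA-Pol2 signal at Lhx1, and the value of -0.38 gives no direction for it. The other 9 genes lay between -0.19 at Lhx4 and 0.60 at Lhx3 (0.12 to 1.10), and the median was 0.18. Scaled by library totals alone, 7 of the 10 genes were lower in EedcKO and none passed, and 2.42% of all promoters were higher and 21.1% lower instead of 12.2% and 7.86%. Shifted by promoters without a summit, all 10 lay above 0 and 1 passed, with 22.4% higher and 3.01% lower. The direction at these genes thus depended on the scaling. IgG between the genotypes passed at 0 of 10 genes, against 7.33% of all promoters that were higher and 6.77% that were lower, and the median of the 10 was 0.29.

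Eed in EedcKO lay between 34 and 73 reads in each window, with a median of 51 Eed and 23 input reads. No neighbours in that order differed beyond counting error, while the ends, Lhx5 with 73 and Isl1 with 34 reads, stood 2.15-fold apart (1.41 to 3.33). At least 2-fold more Eed than input was found at 3 of 10 genes, against 5.16% of all promoters: Lhx5 at 1.55 (0.81 to 2.48), Lhx3 at 1.17 (0.25 to 2.35) and Lmx1b at 1.08 (0.36 to 1.95). At Lhx5 and Lhx3 the input itself was lower in EedcKO, with 16 and 11 reads, than in wild type, with 36 and 30 reads, and these were the only 2 of the 10 genes at least 2-fold lower in that comparison, against 2.50% of all promoters. Isl1, Lhx4 and Lhx8 lay between -0.08 and 0.22. Shifted by promoters without a summit, 5 of 10 genes passed and so did 17.8% of all promoters, with 11.8% lower instead of 18.0%. All genes had a median of 25 Eed reads in EedcKO, and 99.8% of them had fewer than Lhx5.

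Eed in wild type divided the genes. It exceeded input at least 2-fold at 7 of 10, against 28.4% of all promoters, and was at least 2-fold lower than input at 1 of 10, against 11.6%. Lmx1a had the highest relative log2 ratio, 3.76 (3.13 to 4.61), followed by Lmx1b with 3.62, Lhx6 with 3.04, Lhx1 with 2.77, Isl1 with 2.61, Lhx9 with 2.06 and Lhx5 with 1.46. Lhx8 was lower, with 4 Eed and 22 input reads and a relative log2 ratio of -1.58 (-4.09 to -0.54). Lhx3 stood at -0.89 (-2.23 to -0.04) and Lhx4 at -0.22 (-1.54 to 0.73). Unshifted, 5 genes were higher and 3 lower, with 14.5% of all promoters higher and 59.4% lower.

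Between the genotypes, Eed was at least 2-fold lower in EedcKO at 5 of 10 genes, against 30.0% of all promoters, and at least 2-fold higher at 3 of 10, against 22.6%. The lower ones were Isl1 at -2.23 (-2.86 to -1.71), Lhx6 at -2.16 (-2.71 to -1.69), Lmx1b at -2.09 (-2.54 to -1.69), Lmx1a at -1.98 (-2.42 to -1.59) and Lhx1 at -1.65 (-2.10 to -1.24). The higher ones were Lhx8 at 2.70 (1.80 to 5.17), Lhx4 at 1.48 (0.73 to 2.70) and Lhx3 at 1.21 (0.40 to 2.51). The comparisons with input and between genotypes share the wild type Eed library, in which these 3 genes were low. Lhx5 at -0.52 and Lhx9 at -0.86 lay within the rule, and the median of the 10 was -1.26. The median promoter itself had moved by 0.88 on the log2 scale when libraries were scaled by totals; unshifted, 4 genes were lower and 3 higher, and of all promoters 47.2% were higher and 14.7% lower. Shifted instead by promoters without a summit, 6 genes were lower and 2 higher, and 11.1% of all promoters were higher and 38.5% lower.

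**Figure D2:**
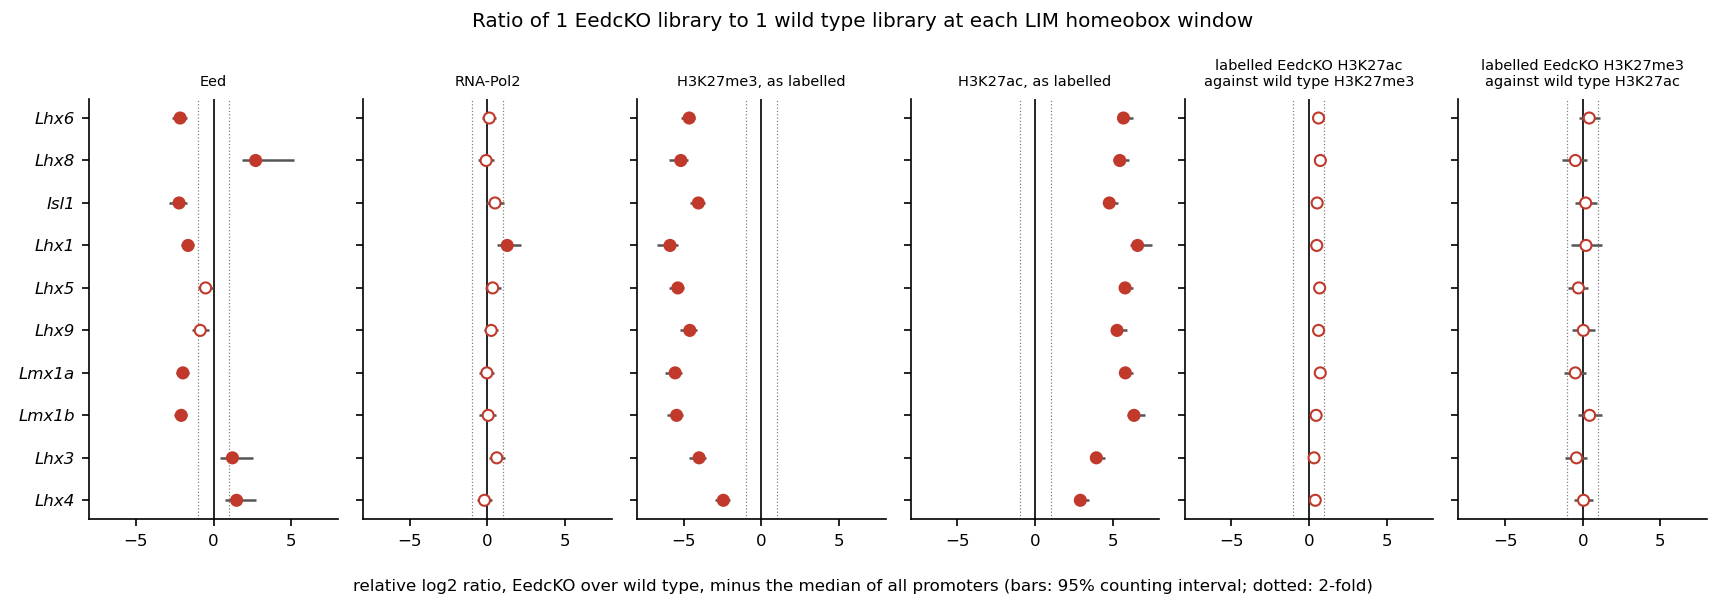
Relative log2 ratio of 1 EedcKO library over 1 wild type library at each gene, with 95% counting intervals as bars, dotted lines at 2-fold and filled points past it. Eed splits the genes to both sides, from -2.23 at Isl1 to 2.70 at Lhx8, RNA-Pol2 stays near 0 apart from Lhx1, and the histone panels are wide as labelled and within 2-fold when the EedcKO labels are crossed.

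Taken as labelled, the histone libraries differed between the genotypes at every gene. The library labelled EedcKO H3K27me3 was at least 2-fold below wild type H3K27me3 at 10 of 10 genes, against 13.0% of all promoters, with a median relative log2 ratio of -4.91, from -5.88 at Lhx1 (-6.70 to -5.36) to -2.44 at Lhx4 (-2.98 to -2.02). The library labelled EedcKO H3K27ac was at least 2-fold above wild type H3K27ac at 10 of 10 genes, against 18.2% of all promoters, with a median of 5.57, from 2.91 at Lhx4 (2.50 to 3.44) to 6.60 at Lhx1 (6.08 to 7.50). Without the shift both counts stayed at 10, while 6.45% of all promoters were lower and 41.0% higher for H3K27me3, and 7.90% higher and 51.6% lower for H3K27ac.

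With the labels crossed, no gene passed the rule. The library labelled EedcKO H3K27ac against wild type H3K27me3 passed the rule at 0 of 10 genes, against 2.55% of all promoters that were higher and 4.49% that were lower, with relative log2 ratios from 0.33 at Lhx3 to 0.74 at Lhx8, a median of 0.57 and all 10 above 0. The library labelled EedcKO H3K27me3 against wild type H3K27ac passed at 0 of 10, against 13.0% higher and 6.18% lower, from -0.48 at Lmx1a to 0.44 at Lmx1b, with a median of 0.04. With IgG subtracted from both libraries, 2 passed, and the share of all promoters under that setting is not given. By library totals, 0.83% of all promoters were higher and 10.7% lower in the first of these comparisons, and 15.3% and 4.23% in the second. Shifted by promoters without a summit, the shares were 3.50% and 3.38% in the first and 9.12% and 11.9% in the second. Over its own IgG, the library labelled EedcKO H3K27ac was at least 2-fold higher at 10 of 10 genes, against 14.5% of all promoters, with a median of 5.50. Over the same IgG, the library labelled EedcKO H3K27me3 passed at 0 of 10, against 7.78% of all promoters that were higher and 6.83% that were lower, with a median of -0.07. These counts of 0 of 10 lie near the background.

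The order of the genes by level was compared between libraries. Over the 10 genes, the Spearman correlation of the library labelled EedcKO H3K27ac was 0.976 to wild type H3K27me3 and 0.03 to wild type H3K27ac. That of the library labelled EedcKO H3K27me3 was -0.2 to wild type H3K27me3, 0.335 to wild type H3K27ac and 0.358 to EedcKO IgG. Wild type H3K27me3 and wild type Eed correlated at 0.644. These describe 10 windows that were counted in the same libraries and differ in CG content, and carry no p.

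Summits are the highest points of the peaks deposited for each library. Those of wild type H3K27me3 and of the library labelled EedcKO H3K27ac stood mostly beside the windows, while most windows held a wild type Eed summit. The score of a summit is the authors' own. EedcKO Eed had a summit within 1 kb of the centre at 5 of 10 genes, against 9.41% of all genes, and wild type Eed at 7 of 10, against 29.1%. For the library labelled EedcKO H3K27ac it was 2 of 10, against 5.92%, and for wild type H3K27me3 3 of 10, against 6.40%. Within 10 kb, EedcKO Eed had a summit at 7 of 10 genes, against 31.8% of all genes, and wild type Eed at 10 of 10, against 52.1%. Summits of the library labelled EedcKO H3K27ac and of wild type H3K27me3 lay within that distance at 10 of 10 genes each, and at 6688 and 6926 of all 55276 genes. The library labelled EedcKO H3K27me3, wild type H3K27ac and RNA-Pol2 in both genotypes had none at any of the 10 within that distance. Of all genes, 2.0% had one in the library labelled EedcKO H3K27me3 and 16.5% in wild type H3K27ac. For RNA-Pol2 the shares were 28.5% in EedcKO and 8.0% in wild type.

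The positions of the highest summits within 10 kb were compared between the library labelled EedcKO H3K27ac and wild type H3K27me3. They lay within 1 kb of each other at 9 of 10 genes and within 200 bp at 6, as at Lhx6, where they stood 3113 bp and 3111 bp downstream of the centre with scores of 304.2 and 213.4. At Lhx5, the exception, they stood 4955 bp apart, on either side of the centre. At Lhx4 the compared summits were weak, with scores of 6.57 and 7.92, and the strong ones nearest its RefSeq start, with scores of 422.6 and 265.8, stood 3700 bp apart. How often the highest summits of these libraries lie as close over all genes was not computed. Wild type H3K27me3 was highest inside the window at Lhx5, Lmx1a (292 bp downstream) and Lmx1b (730 bp), and beyond it at the others, as at Isl1, 4288 bp downstream.

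Eed summits filled in what the windows of Lhx8, Lhx3 and Lhx4 did not count. Lhx8 had its highest wild type Eed summit 2343 bp downstream of the centre, with a score of 75.6, and its highest wild type H3K27me3 summit 2567 bp downstream. Lhx3 had an EedcKO Eed summit at -5 bp from its downstream start, where the promoter holds 28 CG, with a score of 3.61. Its highest wild type Eed summit lay at 9 bp from the same start, with a score of 75.2. Near the RefSeq start of Lhx4, far outside the counted window, lay a wild type Eed summit at -971 bp (score 44.7) and a wild type H3K27me3 summit at 677 bp (score 265.8). All 10 genes had a wild type Eed summit with a score of at least 25.4 within 10 kb, the lowest of their highest scores, as did 31.4% of all genes.

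**Figure D3:**
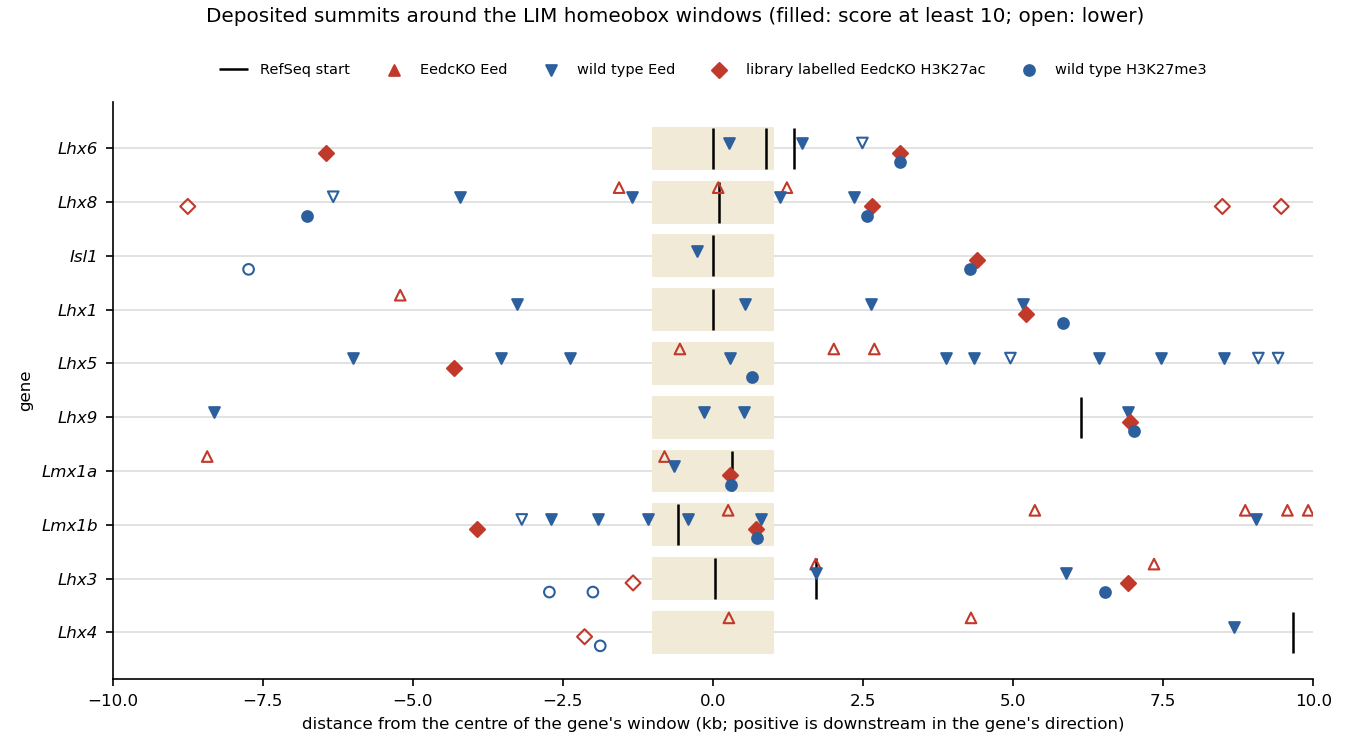
Deposited summits within 10 kb of the centre of each gene's window, in kb along the gene, filled where the authors' score is at least 10, with the counted 2 kb window shaded and RefSeq starts as black lines. The EedcKO Eed summits are all open, and the highest summits of the library labelled EedcKO H3K27ac and of wild type H3K27me3 lie within 1 kb of each other at all genes but Lhx5; those of Lhx4 have scores under 10.

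Eed reads went with CG content across the genome, more steeply in wild type counts. Among 17054 genes with a RefSeq start at their window, the median was 18.5, 33.5, 41, 43 and 46 EedcKO Eed reads in the classes of 0 to 4, 5 to 9, 10 to 19, 20 to 29 and at least 30 CG, while its input had 16, 19, 22, 22 and 22. Wild type Eed had medians of 8, 11, 47, 92 and 147 reads over the same classes, against 17, 20, 24, 26 and 26 in its input. Lhx8, with 4 CG and 4 wild type Eed reads, lay in the lowest class and under its median. Lmx1a with 12 CG and 198 reads and Lhx6 with 16 CG and 145 reads stood far above the median of their class. Lmx1b with 24 CG and 198 reads and Lhx1 with 31 CG and 157 reads also stood above theirs. Isl1 with 37 CG and 121 reads stood below its own, as did Lhx3 with 11 reads and 13 CG at the start inside its window. These medians are over all genes. Among genes with at least as much wild type H3K27me3 as Lhx4, the class of at least 30 CG had a median of 178 wild type Eed reads, and Lhx1 lay below it.

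Low Eed beside high H3K27me3 also occurred at genes other than Lhx8, Lhx3 and Lhx4. Of 2097 genes with at least as much wild type H3K27me3 as Lhx4, 26.3% had less Eed than input, in RPKM, in wild type, against 71.4% of all genes. A RefSeq start lay at the window of 1070 of them, and 20.5% of these had less Eed than input. By CG class that share was 52.1% of 48 genes with 0 to 4 CG, 49.6% of 133 with 5 to 9, 30.3% of 323 with 10 to 19, 9.40% of 319 with 20 to 29 and 0 of 247 with at least 30. The part of CG content in the Eed levels was not tested.

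**Figure D4:**
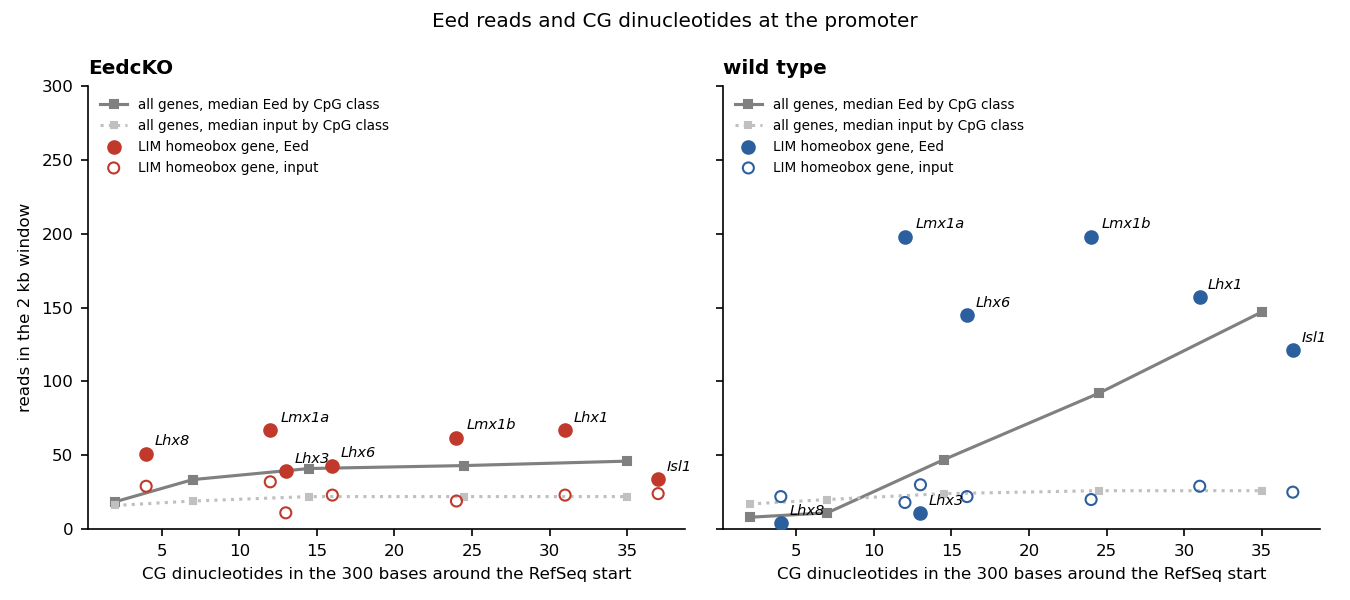
Reads per 2 kb window against the number of CG dinucleotides in 300 bases, for the 7 genes with a RefSeq start inside the window (filled, Eed; open, input) and for the median of all genes in 5 CG classes (squares; each class is drawn near its middle). In EedcKO the genes lie between 34 and 67 Eed reads, and in wild type between 4 at Lhx8 and 198 at Lmx1a and Lmx1b.

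Other LIM genes and cofactors are given beside the 10. The list held Lhx2, the selector of cortical progenitors, Isl2, the LIM-only genes, Ldb1 and Ldb2, the Ssbp genes and Rlim, 12 in all. In the library labelled EedcKO H3K27me3, 5 of 12 were at least 2-fold lower than in wild type H3K27me3, against 13.0% of all promoters, and 0 higher, and the median relative log2 ratio was -0.32. Those at least 4-fold lower were Isl2, a motor neuron gene, with 32 reads in the library labelled EedcKO H3K27me3 and 696 in wild type (-4.32), Lhx2 with 30 and 421 reads (-3.69), and Lmo3, a LIM-only cofactor, with 16 and 137 reads (-2.93). Ldb1, the shared LIM cofactor, had 58 reads in the library labelled EedcKO H3K27me3 and 68 in wild type. Crossed, the library labelled EedcKO H3K27ac against wild type H3K27me3 passed the rule at 0 of 12, against 2.55% of all promoters higher and 4.49% lower. The median was 0.53, with 0.39 for Isl2, 0.60 for Lhx2 and 0.73 for Lmo3.

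RNA-Pol2 in EedcKO was at least 2-fold higher at 5 of these 12 genes, against 12.2% of all promoters, and lower at 0, against 7.86%. Their median relative log2 ratio for RNA-Pol2 was 0.80, while IgG was higher at 2, against 7.33% of all promoters, and had a median of 0.61. By library totals RNA-Pol2 was higher at 0 and lower at 1, against 2.42% and 21.1% of all promoters, with a median of 0.39. Shifted by promoters without a summit, it was higher at 7 and lower at 0, against 22.4% and 3.01%. None reached 4-fold. Eed in EedcKO was at least 2-fold lower at 8 of the 12, against 30.0% of all promoters, and higher at 2, against 22.6%. Isl2 resembled Lhx8: its window held 37 Eed reads in EedcKO and 2 in wild type, beside 17 input reads in EedcKO and 30 in wild type. It was chosen for mention after its values were seen.

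Genes that act with or downstream of the 10, such as Nkx2-1 of the medial ganglionic eminence and the cholinergic gene Chat, carried H3K27me3 in wild type as well. Of 28, 24 exceeded IgG at least 2-fold, against 19.1% of all promoters. In the library labelled EedcKO H3K27me3, 23 of 28 were at least 2-fold lower than in wild type, against 13.0% of all promoters, and 0 higher, with a median relative log2 ratio of -4.25. The largest differences were at Pax2, of the midbrain and hindbrain boundary, with 30 reads in the library labelled EedcKO H3K27me3 and 1911 in wild type (-5.86), Msx1, of the dorsal midline, with 26 and 1402 reads (-5.61), Gbx2, of the thalamus and anterior hindbrain, with 38 and 1685 reads (-5.36), and Mnx1, of motor neurons, with 42 and 1855 reads (-5.36). Crossed, the library labelled EedcKO H3K27ac against wild type H3K27me3 passed the rule at 0 of 28, against 2.55% of all promoters that were higher and 4.49% that were lower, and stood at 0.63 for Pax2, 0.59 for Msx1, 0.55 for Gbx2 and 0.56 for Mnx1.

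RNA-Pol2 in EedcKO was at least 2-fold higher at 4 of these 28 genes, against 12.2% of all promoters, and lower at 2, against 7.86%, with a median relative log2 ratio of 0.40, and no gene reached 4-fold. By library totals 0 were higher and 5 lower, against 2.42% and 21.1% of all promoters, with a median of -0.01. Shifted by promoters without a summit, 9 were higher and 0 lower, against 22.4% and 3.01%. IgG was lower at 1, against 6.77% of all promoters, and higher at 0, against 7.33%. Eed in EedcKO was at least 2-fold lower at 18 of the 28, against 30.0% of all promoters, and higher at 2, against 22.6%. By library totals 11 were lower and 4 higher, against 14.7% and 47.2% of all promoters. Shifted by promoters without a summit, 23 were lower and 1 higher, against 38.5% and 11.1%. Differences between the lists were not tested.

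The genes outside the 10 whose profile over the 12 libraries lay nearest to the median of the 10 were Matn4, an extracellular matrix gene, Atoh1, a proneural gene of the rhombic lip, Map3k21, a kinase gene, Sim1, needed in the hypothalamus, and Esrrg, an orphan nuclear receptor. Their root mean square distances on log2 RPKM were 0.197, 0.214, 0.217, 0.226 and 0.24. Atoh1, for example, held 45 H3K27me3 and 1759 H3K27ac reads in the libraries labelled EedcKO, against 1220 H3K27me3 and 48 H3K27ac reads in wild type. Of the 10 themselves, Lhx6 lay nearest to their median, at 0.307, and Lhx3, Lhx8 and Lhx4 farthest, from 1.06 at Lhx3 to 1.28 at Lhx4.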

How the data were processed

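The authors deposited whole-number read counts per promoter window, under a name that speaks of RPKM, and, for each antibody library, summits with a peak score. Per the submitters' processing notes, Bowtie2 2.4.1, MACS2 2.2.7.1, deepTools 3.4.0, ChIPseeker 1.22.1 and build mm10 were used; filters and the kind of score are not given there. Counts were converted to RPKM with window length and total promoter count (Python 3.11.15, numpy 2.4.6, pandas 2.3.3, scipy 1.17.1), and the highest window per symbol was used. Where symbols differed between tables (27 symbols), they were taken by Ensembl identifier. The plan assumed RPKM and its rules were kept. The ratio was tested on simulated pairs of libraries in which few promoters changed, so that test does not cover the choice of scaling. The 10 genes, the lists and all rules were chosen with earlier results of these data known. Named genes were the 10, list genes at least 4-fold apart in H3K27me3 as labelled or RNA-Pol2 (at most 4 a list), and the 5 nearest profiles. Comparisons of the EedcKO histone libraries with IgG and of the control libraries with each other were added after the data were seen.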

Additional observations from a re-analysis of the deposited data

How the results depend on the processing

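Each library stands alone, so no paired analysis was possible because each group has 1 library, and every value lacks a replicate check. Of 122 recomputed counts of genes, 101 stayed within 1.5 times and 21 moved. The 101 include 12 from averaging all windows of a symbol, which could not change these genes, as each had 1 window. Wild type H3K27me3 over IgG held at 9 or 10 genes, and both histone comparisons as labelled at 10, under every alternative run. By library totals without a shift, genes past the rule numbered 0 for RNA-Pol2 over IgG in EedcKO, for the same in wild type, and for RNA-Pol2 in EedcKO against wild type. Shifted by promoters without a summit, they numbered 5 for EedcKO Eed over input, 3 for RNA-Pol2 over IgG in EedcKO, 3 for the same in wild type and 2 for wild type H3K27ac over IgG. Under a 4-fold rule they numbered 0 for EedcKO Eed over input, for RNA-Pol2 over IgG in EedcKO and in wild type, and for RNA-Pol2 in EedcKO against wild type, and 3 for Eed lower in EedcKO. A pseudocount of 0.1 RPKM gave 2 for RNA-Pol2 over IgG in EedcKO. With controls subtracted, RNA-Pol2 in EedcKO against wild type gave 0, and the library labelled EedcKO H3K27me3 against wild type H3K27ac gave 2. Lhx1 then stood at -0.38 for RNA-Pol2, a value without direction, as its RNA-Pol2 lay below IgG in both genotypes. Shares of all promoters are not given for the 4-fold rule, the pseudocount or the subtraction, so these counts have no background beside them. Summits within 500 bp were found at 3 genes for EedcKO Eed, 1 for the library labelled EedcKO H3K27ac and 1 for wild type H3K27me3. Within 5 kb they were found at 8 for each of these histone libraries, against 9.85% and 10.3% of all genes. With a score of at least 10, EedcKO Eed had 0. The shares of all genes within 500 bp and at that score are not given, so these counts cannot be called particular to the 10 genes. Counting summits at RefSeq starts, chosen after seeing the data, moved no count by over 1.5 times; rescaling the lists, chosen likewise, moved 10 of 16 list counts. The causes were not tested.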
